A study of Homo sapiens with 8 samples.

Results

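The NF-kappa-B genes described here are REL, RELA, RELB, NFKB1, NFKB2, NFKBIA, TIFA and TNFAIP3. They were chosen by name, and every row with one of these 8 names was taken from 4 lists of N6-methyladenosine (m6A) peaks. This gave 62 of the 130622 listed peaks, on 6 of the 8758 genes with a peak. RELB and NFKB1 had no row in any list. The choice was made with the lists known, since REL stood among the strongest peaks listed only with the METTL14 hairpin in U2OS cells and TIFA among the strongest listed only with the control hairpin. The values below are therefore descriptions, without a test.

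m6A was mapped by MeRIP-seq, in which RNA fragments are enriched with an antibody against m6A and sequenced. The groups were U2OS cells with a lentiviral short hairpin RNA against METTL14 (U2OS shMETTL14), U2OS cells with a control hairpin (U2OS NC), 143B cells with the METTL14 hairpin (143B shMETTL14) and 143B cells with the control hairpin (143B NC). U2OS and 143B are established human osteosarcoma lines, and METTL14 is a subunit of the enzyme complex that writes m6A on messenger RNA. Each group had 1 enriched library and 1 peak list, so no difference has a replicate check, and the 4 input libraries were not analysed here. How many hairpin sequences were used and how much METTL14 remained are not stated in the labels.

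NF-kappa-B is a family of dimeric transcription factors that cells keep ready in the cytoplasm and release on inflammatory or stress signals. REL (c-Rel), RELA and RELB carry activation domains, while NFKB1 and NFKB2 are made as long precursors that are trimmed to DNA-binding partners. NFKBIA (I-kappa-B-alpha) holds the dimers in the cytoplasm, TIFA is an adaptor that assembles upon phosphorylation and engages TRAF6 upstream, and TNFAIP3 (A20) is a ubiquitin-editing enzyme that shuts the signal off. Several of these genes are textbook targets of the factor they control. m6A is typically dense around stop codons and in 3' UTRs, where reader proteins can alter the stability or translation of the RNA.

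The DNA before the transcription start of these genes is shown because NF-kappa-B binds a short consensus, kappa-B, in the promoters of its targets. The 10-base kappa-B consensus was searched by name on both strands in the 250 bases upstream of each start in the RefSeq promoter table (GRCh38.p14). It was found in 6 of the 11 windows of these genes (54.5%), which belong to 5 of the 7 genes with an entry, and in 3498 of all 35116 windows (9.96%). The windows of RELA and TIFA held no match, and RELB had no entry. A gene can have more than 1 window. Because the genes were chosen by name and several are textbook targets, the higher share is not a finding of these data. The strands below run with the gene, capitals mark the match, overlapping matches are merged, and 1 of several matches is shown for NFKB2 and TNFAIP3.
REL, chr2:60881517-60881546, plus strand: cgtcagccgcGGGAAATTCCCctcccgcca
NFKB1, chr4:102501300-102501329, plus strand: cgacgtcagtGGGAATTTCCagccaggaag
NFKB2, chr10:102394461-102394490, plus strand: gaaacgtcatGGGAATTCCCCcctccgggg
NFKBIA, chr14:35404811-35404840, minus strand: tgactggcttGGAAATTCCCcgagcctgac
TNFAIP3, chr6:137867194-137867223, plus strand: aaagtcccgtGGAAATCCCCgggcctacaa
A match is a description of these letters and not a binding site. These promoters are DNA and were not measured here, and the m6A peaks lie on another build, hg19, whose sequence was not used here.

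A locus was listed once for each transcript isoform it lies in, so peaks of 1 list that overlapped on the same strand were joined to sites. The lists held 10822 sites (U2OS shMETTL14), 11699 (U2OS NC), 12886 (143B shMETTL14) and 12258 (143B NC). A shMETTL14 site that overlapped no NC site of the same line by at least 1 base is called gained, and an NC site with no shMETTL14 partner is called lost. Both words describe the lists, not a measured change in methylation. The authors give each peak a linear fold enrichment and a p-value, which serve here only to describe a peak within its own list, where the median fold enrichment of a peak was 3.54, 3.6, 3.59 and 3.8 in the same order. Read counts per peak were not part of these lists, and sequencing depth is therefore unknown. Of 9 osteoblast and bone marker genes 3 had a site, and of 10 blood and immune marker genes 1 had one, CD68. Peaks do not measure RNA level, so neither the knockdown nor the identity of the cells could be checked from them.

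The NF-kappa-B genes had more sites with shMETTL14 in both lines. In U2OS they held 13 sites with shMETTL14, on 5 of the 8 genes, and 7 with NC, on 3. In 143B they held 15 sites with shMETTL14, on 6 genes, and 7 with NC, on 5. Of the U2OS shMETTL14 sites 6 of 13 were gained (46.2%, exact Clopper-Pearson 95% interval 19.2 to 74.9), where 24.9% of all U2OS shMETTL14 sites were gained. Of the U2OS NC sites 1 of 7 was lost (14.3%, interval 0.361 to 57.9), against 31.2% of all. In 143B 9 of 15 shMETTL14 sites were gained (60%, interval 32.3 to 83.7; 32.0% of all), and 1 of 7 NC sites was lost (14.3%, interval 0.361 to 57.9; 24.6% of all). These intervals cover counting error only and take sites as independent, although REL alone gave 69.2% of the U2OS shMETTL14 sites and 46.7% of the 143B shMETTL14 sites. With REL left out, the U2OS lists had 2 of 4 sites gained and 1 of 3 lost, and the 143B lists 4 of 8 gained and 1 of 5 lost. Because the genes were picked for such differences, nothing is read from these shares.

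**Figure D1:**
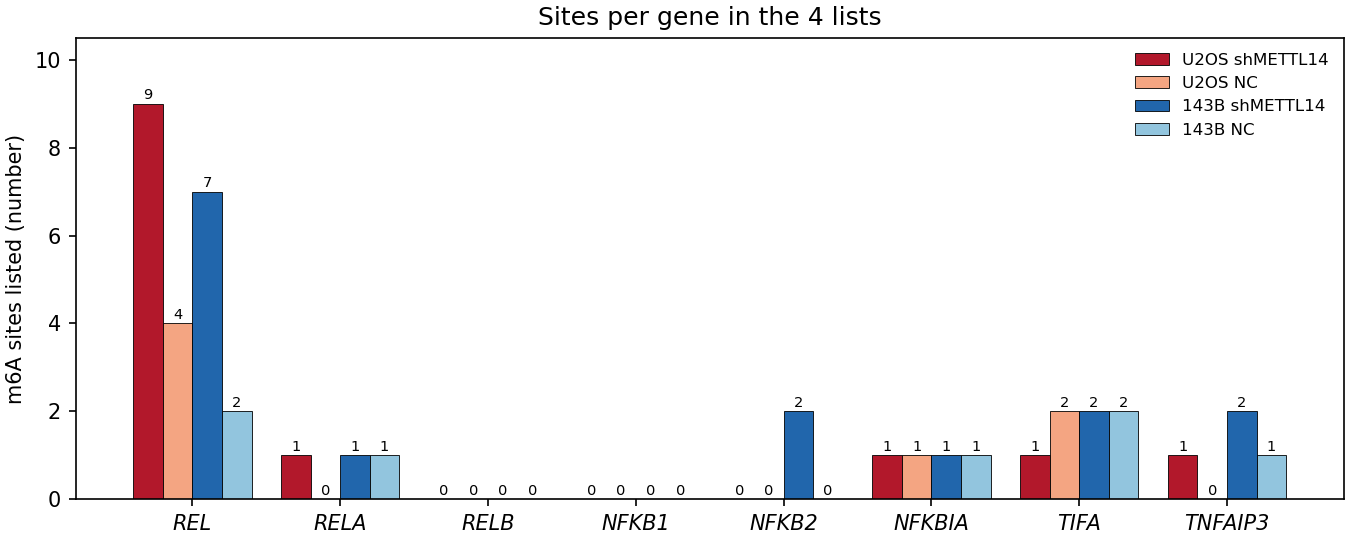
Number of m6A sites listed on each NF-kappa-B gene (vertical axis) in the 4 lists, with shMETTL14 left of NC for each line and 1 library per bar. REL has 9 and 4 sites in U2OS and 7 and 2 in 143B, NFKBIA has 1 in every list, and RELB and NFKB1 have 0.

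REL, the gene of the c-Rel subunit, held the most sites of the set in every list except 143B NC, where TIFA held as many. It had 9 sites in U2OS shMETTL14 and 4 in U2OS NC, and 7 sites in 143B shMETTL14 and 2 in 143B NC. They covered 2053 nt in U2OS shMETTL14 and 1291 nt in U2OS NC, and 1654 nt in 143B shMETTL14 and 451 nt in 143B NC. Within each line shMETTL14 was thus the list with more sites and with more covered bases. REL lost 0 of 4 NC sites in U2OS and 0 of 2 in 143B, where 31.2% and 24.6% of all NC sites were lost. With so few NC sites, a loss of none says little. It gained 4 of 9 shMETTL14 sites in U2OS and 5 of 7 in 143B, where 24.9% and 32.0% of all were gained. The U2OS counts depended on the overlap asked for: with 50% of each site covered, 8 of 9 were gained and 3 of 4 lost, where 44.9% and 49.0% of all sites were. With peaks joined within 200 bp, 2 of 5 were gained and 0 of 2 lost, where 24.1% and 30.1% of all were. With peaks at an authors' p-value of 1e-05 or below, REL gained 3 of 5 and lost 1 of 2 in U2OS (18.9% and 24.2% of all), and gained 2 of 3 and lost 0 of 1 in 143B (32.2% and 15.4% of all).

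All 24 REL peaks lay in the 3' UTR, on the plus strand of chromosome 2. By contrast, 3' UTR peaks made up 22.4% and 22.7% of all peaks in U2OS shMETTL14 and NC, and 25% of all peaks in either 143B list. Of the REL peaks 22 were listed on transcript ENST00000295025.8, which at 11255 nt is longer than 98.8% of the 27692 listed transcripts, and 2 on ENST00000394479.3 (2398 nt). Long transcripts carry more sites. Among genes with a listed transcript of at least 10000 nt the median was 3 sites in each list, against 1 site over all genes. Of such long genes, 6.50% had at least the 9 sites of REL in U2OS shMETTL14, and 39.9% at least its 4 sites in U2OS NC. In 143B, 16.6% had at least its 7 sites with shMETTL14, and 70.8% at least its 2 sites with NC.

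Merging the sites of all 4 lists gave 7 separate places along 7371 nt of the REL 3' UTR. REL had a listed site at 6 of the 7 places in U2OS shMETTL14 and at 3 in U2OS NC, and at 6 places in 143B shMETTL14 and 1 in 143B NC. Counting places avoids the splitting of a wide peak into several sites, and the direction was the same in both lines.

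The place nearest to the 5' end, chr2:61149819-61150125, was listed in both shMETTL14 lists and in neither NC list. Its fold enrichment was 19.6 in U2OS shMETTL14, above that of 97.5% of the sites of that list, and 22.2 in 143B shMETTL14, above 97.9%. It is also the only REL place listed on the shorter transcript. At the 3' end, chr2:61156919-61157189 had the same pattern. There the U2OS shMETTL14 site had the highest fold enrichment of any REL site, 25.1, above 99.1% of its list, with an authors' p-value of 5.4e-07. The 143B shMETTL14 site at this place was short, 61 nt, with a fold enrichment of 11.1 and an authors' p-value of 0.0020, close to the largest in that list, 0.006. Over the whole series 422 of 18714 places (2.25%) were listed with shMETTL14 in both lines and with NC in neither, and REL held 2 of them. The opposite pattern, NC in both lines and shMETTL14 in neither, was found at 359 places (1.92%) and at none of the 17 places on the NF-kappa-B genes. With 17 places, none at a share of 1.92% says little. REL was chosen with strong peaks listed only with shMETTL14 in U2OS known, so nothing is read from either count.

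The place chr2:61155902-61156829 was the one listed in all 4 lists, as were 30.1% of all places. U2OS shMETTL14 had 3 sites there that covered 721 nt, at fold enrichments of 4.18, 4.18 and 5.81, where U2OS NC had a single site of 898 nt at 12.8. That single NC site overlapped all 3 shMETTL14 sites by 691 nt in total. In 143B, shMETTL14 and NC each had 2 sites at this place, covering 480 and 451 nt. The 330 nt site chr2:61155932-61156261 had the same borders in both 143B lists, with fold enrichments of 17.7 with shMETTL14 and 19.6 with NC.

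A pair of places was listed in every list except 143B NC. At chr2:61150783-61151143, U2OS shMETTL14 had 1 site at a fold enrichment of 4.26 and U2OS NC 2 sites at 4.17 and 3.57, while 143B shMETTL14 had 1 site at 6.93. At chr2:61155213-61155722, U2OS shMETTL14 had 2 sites at 4.9 and 4.36, 143B shMETTL14 1 site at 8.86 and U2OS NC 1 site at 7.19. The remaining places were each seen in 1 list, chr2:61152579-61152789 in 143B shMETTL14 at 22.2 and chr2:61153926-61154016 in U2OS shMETTL14 at 4.9.

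Put in numbers, 5 of the 7 REL places with a shMETTL14 site were listed in both lines, and 1 of the 3 with an NC site. Over all places these shares were 50.1% with shMETTL14 and 47.7% with NC. All 8 differences in place between the hairpins, 3 in U2OS and 5 in 143B, were places listed with shMETTL14 only. Over the series, places listed with shMETTL14 only made up 41.8% of 5640 differing places in U2OS and 57.9% of 6700 in 143B. The REL places lie on the same 3' UTR, and those at its 5' and 3' ends count in both lines. Because REL was chosen with strong peaks listed only with shMETTL14 in U2OS known, nothing is read from this direction.

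**Figure D2:**
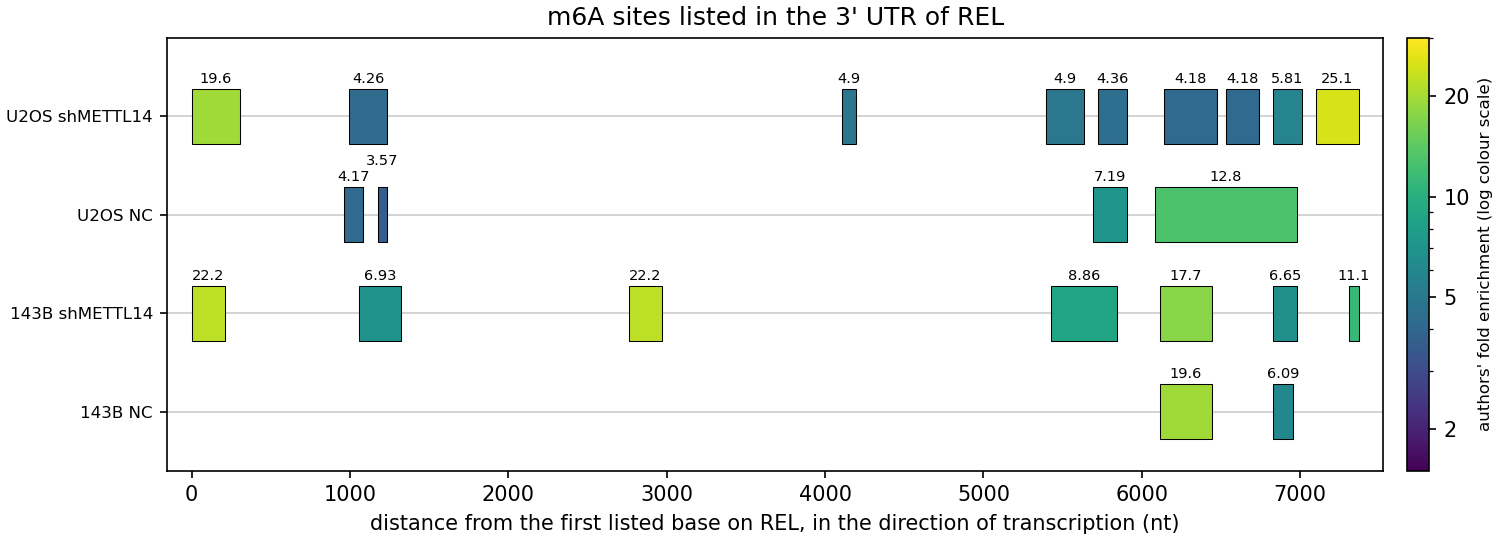
Sites on the REL 3' UTR in the 4 lists, with shMETTL14 above NC for each line; the horizontal axis is the distance in nt from the first listed base, boxes are sites drawn to scale, and colour (log scale) and numbers give the highest authors' fold enrichment of a site. The boxes at the far left (19.6 and 22.2) and far right (25.1 and 11.1) appear in both shMETTL14 rows and in neither NC row.

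REL was the only gene of 8758 with at least 5 more sites with shMETTL14 in both lines. It was also the only one with at least 3 more in U2OS and 5 more in 143B when places, or peaks joined within 200 bp, were counted. These cutoffs are the differences of REL itself, which was chosen with strong gained U2OS peaks known. Genes were not matched to REL for transcript length, so its rank is a description and not a test. In listed peaks, where REL had 6 more in each line (10 against 4 and 8 against 2), 38 genes including REL reached that difference. Over all genes, 5.83% had more sites with shMETTL14 in both lines. High fold enrichments were coarse: the gained sites at chr2:61149819 and chr2:61152579 in 143B shMETTL14 shared both their fold enrichment, 22.2, and their authors' p-value, 3.7e-06, and 31 sites of that list had a highest fold enrichment of 22.2. The median authors' p-value of all peaks was 5.8e-07 in 143B shMETTL14 and 7.1e-06 in 143B NC, and 2.5e-06 in U2OS shMETTL14 and 3.5e-06 in U2OS NC. The part of this difference in the REL counts was not tested.

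RELA, the most widely studied activating subunit, had no place in common between any of the lists. In U2OS shMETTL14 it had 1 site of 63 spliced nt in the coding sequence, across an exon junction at chr11:65429285-65429448, and U2OS NC had none. This site was weak, with a fold enrichment of 1.78, above 3.22% of the sites of its list, and an authors' p-value of 0.0025. In 143B, the shMETTL14 site was in the 3' UTR at chr11:65421067-65421221 with a fold enrichment of 2.74. The 143B NC site lay at chr11:65422916-65423035, also annotated as 3' UTR, with a fold enrichment of 18.3 and an authors' p-value of 6.9e-05. These sites were 1694 nt apart on the genome, so RELA counted as 1 gained and 1 lost site in 143B. None of the RELA sites had an authors' p-value of 1e-05 or below, and the U2OS shMETTL14 site was not among the upper 75% of peaks by fold enrichment. The NC peak was listed on 1 RELA transcript, ENST00000525693.1, and the shMETTL14 peaks on 3.

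NFKB2, the precursor that is trimmed in the non-canonical branch of the pathway, was listed in 143B shMETTL14 alone, with 4 peaks at 2 sites. A site across the start of the coding sequence, chr10:104155597-104156016, had 148 spliced nt and a fold enrichment of 3.03 on the short transcript ENST00000471698.1 (472 nt). The other, chr10:104162161-104162281 in the 3' UTR, had a fold enrichment of 2.68 on 3 transcripts. Neither had an authors' p-value of 1e-05 or below. Both lay below the middle of their list, above 30.4% and 22.0% of its sites by fold enrichment. REL, RELA and NFKB2 were thus the subunit genes with a site, and REL was the only one of them with a site in all 4 lists.

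NFKBIA, the inhibitor that NF-kappa-B itself switches on, kept a single site across the stop codon in all 4 lists. The site covered 211 nt in U2OS shMETTL14 and 333 nt in U2OS NC, and 273 nt in 143B shMETTL14 and 296 nt in 143B NC. In each line the bases around the stop codon were shared, 211 nt in U2OS and 270 nt in 143B. The NC sites of both lines reached across a junction into the exon before, up to chr14:35871679 in U2OS and, on 1 of 3 isoforms, chr14:35871615 in 143B, and the shMETTL14 sites ended at chr14:35871256 in both. The highest fold enrichment was 2.08 in U2OS shMETTL14 and 2.68 in U2OS NC, and 2.33 in 143B shMETTL14 and 3.15 in 143B NC. The kept call rests on these low folds: among the upper 75% of peaks of each list by fold enrichment, the single NC site was lost in both lines. Low fold enrichment stood beside small p-values here, with authors' p-values of 7.9e-09 and 8.5e-08 in U2OS shMETTL14 and NC, and 1.5e-10 and 1.0e-10 in 143B shMETTL14 and NC.

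TNFAIP3, the A20 enzyme of negative feedback, had a coding site at chr6:138200134-138200433 in every list except U2OS NC. The site had 300 nt and a fold enrichment of 3.7 in U2OS shMETTL14, 180 nt and 7.76 in 143B shMETTL14, and 121 nt and 3.91 in 143B NC. It was called gained in U2OS and kept in 143B. With peaks at an authors' p-value of 1e-05 or below, TNFAIP3 had no site in U2OS, and its 143B shMETTL14 site was gained. A further site in the 3' UTR, chr6:138202982-138203102, was listed in 143B shMETTL14 at a fold enrichment of 5.17 and an authors' p-value of 9.8e-04. TNFAIP3 thus had 1 site in U2OS shMETTL14 against 0 in U2OS NC, and 2 sites in 143B shMETTL14 against 1 in 143B NC.

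TIFA, the adaptor upstream of TRAF6, was the gene of the set with a lost site in U2OS. The site, chr4:113197253-113197612 in the 3' UTR, was not listed in U2OS shMETTL14 and was 360 nt wide in U2OS NC with a fold enrichment of 27.0, above 99.4% of its list, and an authors' p-value of 3.4e-07. In 143B the same place was listed with both hairpins, at 91 nt and a fold enrichment of 4.99 with shMETTL14 and at 181 nt and 7.5 with NC. Of the 213 U2OS NC sites with a fold enrichment of at least 20, 43 were lost (20.2%), so a loss at this strength was not rare in that list. The other TIFA site, in the coding sequence at chr4:113199063-113199435, was listed in all 4 lists. It had a fold enrichment of 4.16 in U2OS shMETTL14 and 2.64 in U2OS NC, and 3.1 in 143B shMETTL14 and 3.48 in 143B NC. With peaks at an authors' p-value of 1e-05 or below, TIFA had 1 gained and 1 lost site in U2OS and 1 lost site in 143B. Among the upper 75% of peaks by fold enrichment, the U2OS shMETTL14 coding site was also called gained.

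**Figure D3:**
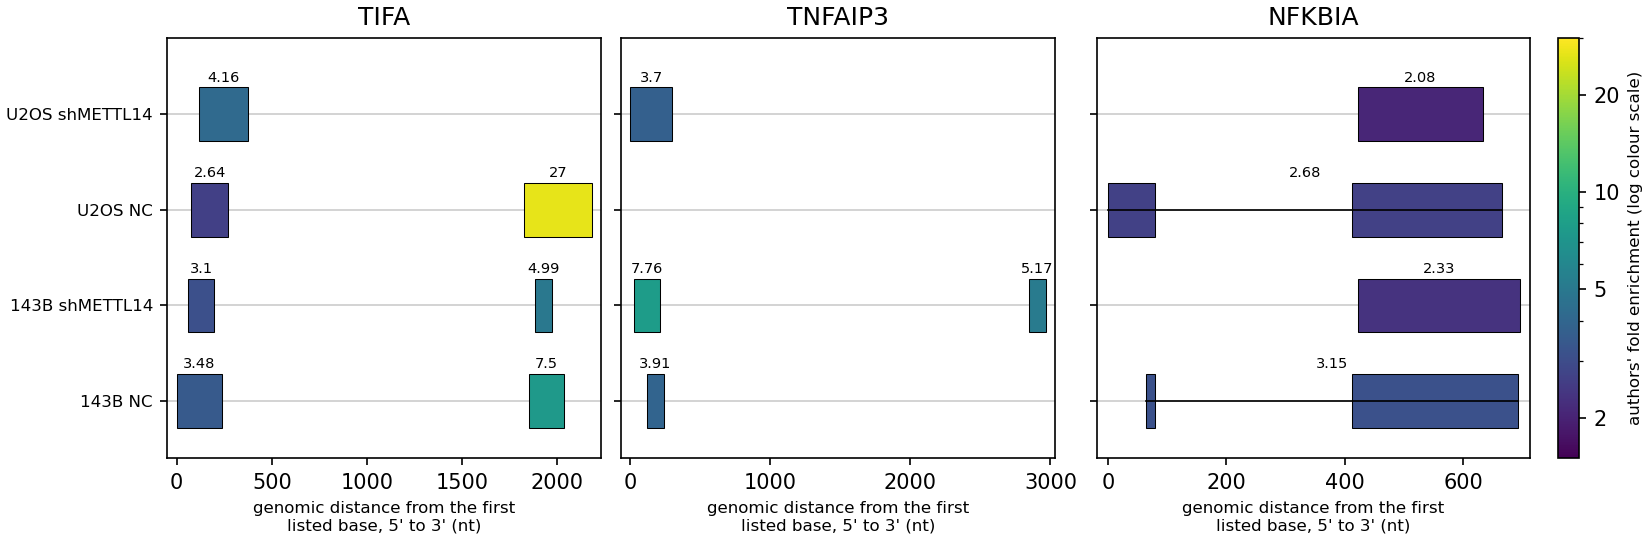
Sites on TIFA, TNFAIP3 and NFKBIA in the 4 lists, with shMETTL14 above NC for each line; the horizontal axis is genomic distance in nt from the first listed base in the direction of transcription, thin lines join blocks across an intron, and colour (log scale) and numbers give the highest authors' fold enrichment. TIFA lacks its 3' UTR site (27 in U2OS NC) in U2OS shMETTL14, and the NFKBIA site reaches into the exon before in the NC rows.

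Set side by side, the genes differed in how strongly their sites were listed. REL sites ran from 4.18 to 25.1 in U2OS shMETTL14 and from 3.57 to 12.8 in U2OS NC, and from 6.65 to 22.2 in 143B shMETTL14 and from 6.09 to 19.6 in 143B NC. Sites of other genes within the REL range of their list were TNFAIP3 in 143B shMETTL14 (7.76), and RELA (18.3) and TIFA (7.5) in 143B NC. The lost TIFA site in U2OS NC, at 27.0, lay above the REL range of that list. NFKBIA and NFKB2 sites stayed at or below 3.15. At a fold enrichment of 20 or more, these genes had 1 site in U2OS shMETTL14 and 2 in 143B shMETTL14, all on REL and all gained. Over all sites of that strength, the gained ones were 37 of 226 (16.4%) in U2OS shMETTL14 and 108 of 331 (32.6%) in 143B shMETTL14. The TIFA site in U2OS NC, at 27.0, was also of that strength and was lost, as were 43 of 213 such sites (20.2%). REL and TIFA were chosen with strong U2OS peaks of this kind known, so nothing is read from these counts.

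**Figure D4:**
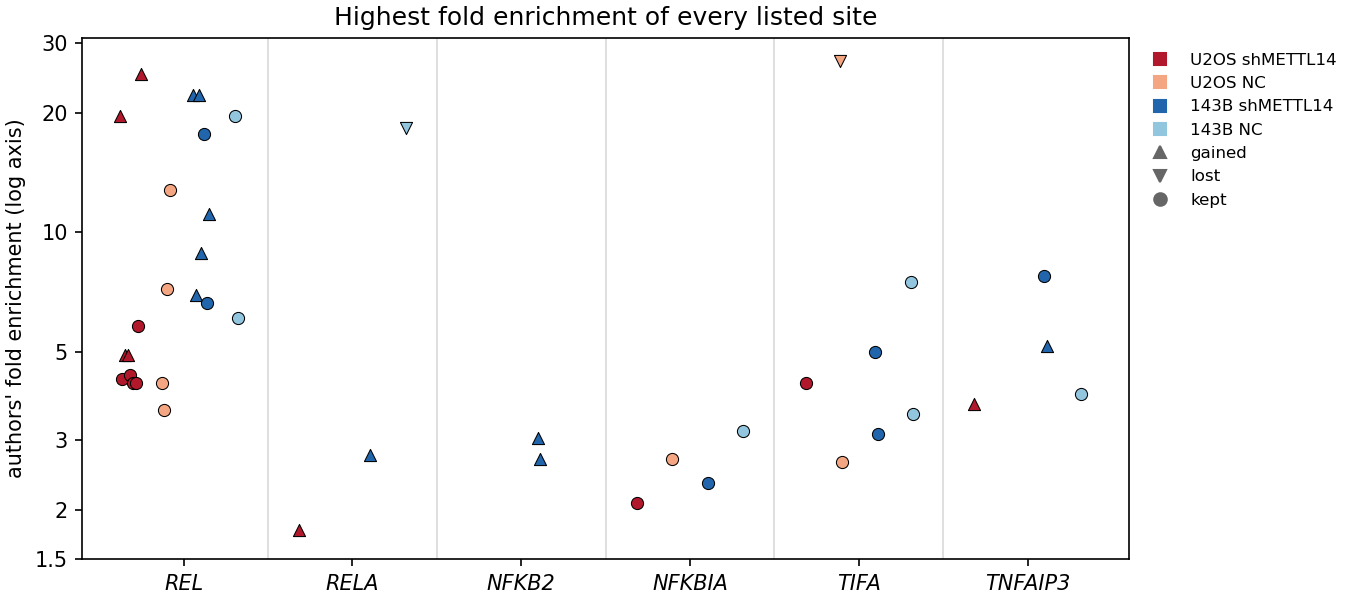
Highest authors' fold enrichment of every listed site (vertical log axis) by gene and list, with shMETTL14 left of NC for each line; triangles pointing up are gained, triangles pointing down lost and circles kept sites. The highest points are the lost TIFA site (27.0, U2OS NC) and the gained REL site (25.1, U2OS shMETTL14), while all NFKBIA points are circles between 2.08 and 3.15.

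Between the lines, 4 of the 7 U2OS NC sites on these genes overlapped a 143B NC site (57.1%, interval 18.4 to 90.1), against 65.7% of all U2OS NC sites. Of the 143B NC sites 5 of 7 overlapped a U2OS NC site (71.4%, interval 29.0 to 96.3; 63.1% of all). The site of NFKBIA and both sites of TIFA in U2OS NC were found in 143B NC, whereas 1 of the 4 REL sites was. RELA and TNFAIP3 had an NC site in 143B and none in U2OS.

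The wider pathway was taken from 4 lists of receptors and adaptors, kinases and ubiquitin writers, inhibitors and deubiquitinases, and target genes. Of the 110 symbols 63 had a site somewhere. In U2OS 19 of 53 listed genes had more sites with shMETTL14, 13 had fewer and 21 as many. In 143B 17 of 55 had more, 20 fewer and 18 as many. Over all genes, 23.8% had more and 32.3% fewer in U2OS, and 32.2% had more and 26.0% fewer in 143B. Gained were 28 of 81 U2OS shMETTL14 sites (34.6%) and 25 of 85 143B shMETTL14 sites (29.4%), and lost were 28 of 81 U2OS NC sites (34.6%) and 18 of 84 143B NC sites (21.4%). Over all sites, 24.9% were gained and 31.2% lost in U2OS, and 32.0% were gained and 24.6% lost in 143B. Beside these shares, the wider list lay close to the background in 143B.

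Receptors and adaptors in U2OS had 13 of 23 shMETTL14 sites gained (56.5%, interval 34.5 to 76.8), against 24.9% of all. They had 15 of 24 NC sites lost (62.5%, interval 40.6 to 81.2), against 31.2% of all. These intervals take sites as independent, although some genes gave several of them. The shares are among many set beside the background, over the wider lists, both lines and both calls. They were not recomputed under other settings, so nothing is read from them. RIPK1, the kinase that tethers the complex below the TNF receptor, had 2 gained sites and 3 lost ones in U2OS and kept all of its 3 shMETTL14 and 4 NC sites in 143B. TLR4, the receptor for bacterial lipopolysaccharide, had 3 sites in U2OS shMETTL14 and 4 in U2OS NC, and 4 in 143B shMETTL14 and 1 in 143B NC. TRAF5, a TNF receptor adaptor, gained 2 sites and lost 1 in U2OS. ALPK1, the kinase that phosphorylates TIFA after sensing a bacterial sugar, had 3 sites in U2OS shMETTL14 and 1 in U2OS NC, and 2 in 143B shMETTL14 and 0 in 143B NC. TNFRSF11A, the RANK receptor of osteoclast signalling, had 2 sites in 143B shMETTL14 and none elsewhere. TRAF3 and LTBR kept every site in U2OS, and BIRC2 kept its 4 shMETTL14 and 3 NC sites in 143B. In 143B this list was near the background, with 8 of 23 gained (34.8%, against 32.0% of all) and 3 of 18 lost (16.7%, against 24.6%).

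Kinases and ubiquitin writers gained 7 of 20 sites in U2OS (35.0%, against 24.9% of all) and 4 of 21 in 143B (19.0%, against 32.0%). Lost were 7 of 22 in U2OS (31.8%, against 31.2% of all) and 9 of 27 in 143B (33.3%, against 24.6%). TAB3, a ubiquitin-binding partner of the kinase TAK1, had 3 sites in 143B shMETTL14 and 5 in 143B NC, with 3 lost and 1 gained. MAP3K3 had 0 sites in U2OS shMETTL14 and 2 in U2OS NC, the stronger at a fold enrichment of 21.8, and in 143B it had 1 gained shMETTL14 site and 1 lost NC site. TAB1 had 2 gained and 1 lost in U2OS and 1 gained in 143B, and UBE2V1, a ubiquitin-conjugating cofactor, 1 gained and 1 lost in U2OS. MAP3K7, which encodes TAK1, kept every site in both lines, as did UBE2D3 in U2OS and TAB2 in 143B.

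Inhibitors and deubiquitinases gained 5 of 23 sites in U2OS (21.7%, against 24.9% of all) and 7 of 21 in 143B (33.3%, against 32.0%). Lost were 2 of 18 in U2OS (11.1%, against 31.2% of all) and 4 of 21 in 143B (19.0%, against 24.6%). CYLD, a deubiquitinase that restrains the pathway, had 2 sites in both U2OS lists, with 1 gained and 1 lost, and had 2 sites in 143B shMETTL14 and 0 in 143B NC. NKIRAS1, a small GTPase-like regulator of I-kappa-B, had 2 sites in 143B shMETTL14 and BCL3, a nuclear I-kappa-B protein, had 1, with none in 143B NC. TNIP3, a partner of A20, had 1 site in U2OS shMETTL14 and none elsewhere. NFKBIB, a second cytoplasmic inhibitor, gained 1 site in U2OS at a fold enrichment of 13.1 and lost none in either line. PIAS1 had 3 kept sites in each of the 4 lists, and TNIP1 2 kept sites in both U2OS lists.

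Target genes of NF-kappa-B gained 5 of 17 sites in U2OS (29.4%, against 24.9% of all) and 6 of 20 in 143B (30%, against 32.0%). Lost were 4 of 17 in U2OS (23.5%, against 31.2% of all) and 2 of 18 in 143B (11.1%, against 24.6%). TRAF1, which also stands among the adaptors, had 2 gained sites in U2OS with a highest fold enrichment of 16.3 and no site in 143B. LIF gained 1 and lost 1 site in U2OS, and CCND1, the cyclin of the first cell cycle step, gained 1 and lost 1 in each line at fold enrichments below 2. TNFAIP2 gained 1 site in each line. CSF1, the macrophage growth factor, had 3 sites in U2OS shMETTL14 and 5 in U2OS NC, and 3 in 143B shMETTL14 and 2 in 143B NC. MYC and GADD45B kept 1 site in every list, and JUNB and ICAM1 kept every site in 143B.

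**Figure D5:**
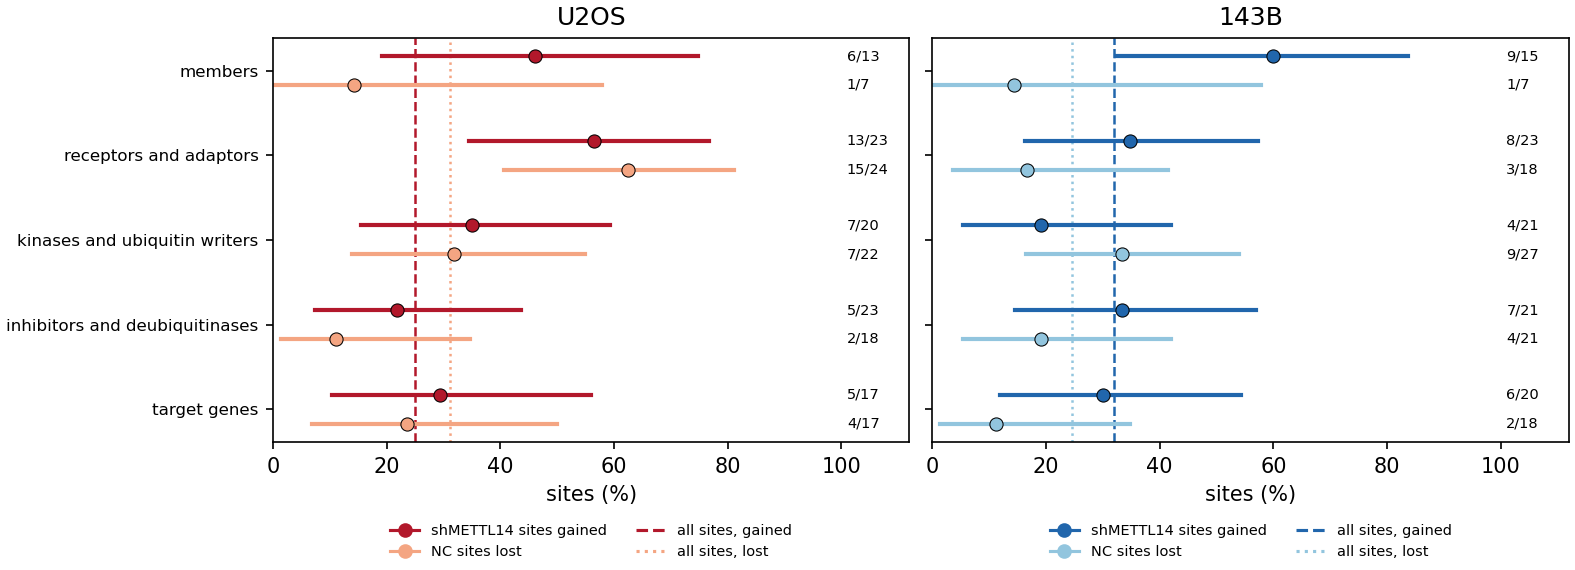
Share of shMETTL14 sites gained (upper point) and of NC sites lost (lower point) in percent for the NF-kappa-B genes and the 4 wider lists, in U2OS (left) and 143B (right); bars are exact 95% binomial intervals, dashed and dotted vertical lines the shares over all sites, and the figures at the right edge the counts. In U2OS both points of the receptors and adaptors (13/23 and 15/24) lie to the right of the lines, while in 143B they (8/23 and 3/18) lie near them. The intervals take sites as independent.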

How the data were processed

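FastQC 0.11.5, Trimmomatic, HISAT2 and build hg19 (GRCh37) are named in the submitters' processing notes. No peak caller or threshold is named there. Each enriched library has 1 list, with a p-value and a fold enrichment (a linear ratio) per peak, both made and deposited by the authors; whether the p-value is adjusted and what the ratio is relative to are not stated. Transcript lengths (RNA length) and regions were likewise deposited by the authors. Depth is unknown.

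Starts were converted to count from 1. Overlap used spliced blocks and strand. Places merge overlapping peaks of all 4 lists. Intervals on shares are exact (Clopper-Pearson, 95%). With 1 list per group no test was made. Genes of the set and all lists were chosen with earlier results of these data known. Of each wider list and line, the text names up to 3 genes with the most lost plus gained sites and up to 2 with the most kept sites and none lost or gained, ties by fold enrichment; genes outside this rule are marked. FAM105B was searched beside its newer symbol OTULIN, and IL8 beside CXCL8. Joining was checked on a small made-up list. Overlap was checked on the U2OS NC list against a copy with known sites removed and peaks shortened by 1 base. Shifted borders, split peaks and peaks near a threshold were not simulated. Alternatives changed the overlap, the peaks used, the unit and the use of blocks and strand. Python 3.11.15, numpy 2.4.6, pandas 2.3.3, scipy 1.17.1 and matplotlib 3.10.9 were used.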

Additional observations from a re-analysis of the deposited data

Results flagged for a closer look

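Of the 63 genes of the wider pathway with a site, 10 (15.9%) had more sites with shMETTL14 in one line and fewer in the other, and these differences between the lines were not tested. BIRC2, an inhibitor of apoptosis that ubiquitinates RIPK1, had 0 sites in U2OS shMETTL14 and 2 in U2OS NC (difference -2), and 4 in 143B shMETTL14 and 3 in 143B NC (difference 1). None of its 143B sites was gained or lost, so there only the number of overlapping sites differed. CSF1 differed by -2 in U2OS (3 sites with shMETTL14 and 5 with NC) and by 1 in 143B (3 and 2 in the same order). NFKBIB differed by 1 in U2OS (3 sites with shMETTL14 and 2 with NC) and by -2 in 143B (1 and 3 in the same order), where none of the 3 NC sites was lost. TLR4 differed by -1 in U2OS (3 sites with shMETTL14 and 4 with NC) and by 3 in 143B (4 and 1 in the same order). AZI2, PIAS4 and FAM105B each differed by 1 in U2OS (2 sites with shMETTL14 and 1 with NC) and by -1 in 143B (1 and 2 in the same order). FAM105B had no gained or lost site in either line, so only the number of its overlapping sites differed. BTRC differed by 1 in U2OS (1 and 0) and by -1 in 143B (1 and 2). NKRF differed by -1 in U2OS (2 and 3) and by 1 in 143B (3 and 2), and CUL1 by -1 in U2OS (1 and 2) and by 1 in 143B (2 and 1). Of these genes, 5 had more sites with shMETTL14 in U2OS and fewer in 143B, and 5 the reverse. Over all 8758 genes, 963 differed in opposite directions, 338 (3.86%) with more sites with shMETTL14 in U2OS and fewer in 143B, and 625 (7.14%) the reverse. None of the 6 NF-kappa-B genes with a site was among them, and RELB and NFKB1 had no row. With so few genes, chosen with the lists known, nothing is read from this.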

How the results depend on the processing

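Of 72 shares recomputed under 8 other settings, 64 stayed within the exact interval of the main share. This is a weak criterion for the NF-kappa-B genes, whose intervals were wide. Their U2OS lost share of 57.1%, against 14.3% in the main setting, still counted as within the interval (0.361 to 57.9). When overlap had to cover 50% of each site, the U2OS shares were 76.9% gained for the NF-kappa-B genes and 58.0% gained and 58.0% lost for the wider list, and the 143B wider list had 49.4% gained and 48.8% lost; the shares over all sites were then 44.9% gained and 49.0% lost in U2OS and 50.6% gained and 48.1% lost in 143B. With the upper 75% of peaks by fold enrichment the wider list lost 48.5% in U2OS (35.7% of all sites) and gained 41.7% in 143B (36.3%). With an authors' p-value at or below 1e-05 it gained 21.9% in U2OS (18.9%). Leaving out REL, an alternative chosen after seeing the data, put 3 of 3 U2OS NC sites (100%) in 143B NC. The cause was not tested. The gained share of the NF-kappa-B genes spanned 38.5% to 76.9% in U2OS, and 50% to 64.3% in 143B, above the share over all sites under each of these settings. The settings re-use the same lists and the same genes, which were picked for such differences, so nothing is read from this. The lost share spanned 10.0% to 57.1% in U2OS, and 10.0% to 33.3% in 143B, and did not keep its place below the share over all sites. With 50% of each site it was 57.1% in U2OS (49.0% of all); at the p-value limit it was 2 of 4 in U2OS (24.2% of all) and 1 of 3 in 143B (15.4%); without REL it was 1 of 3 in U2OS (31.2%). Calls on single genes that ended or turned under the fold enrichment or p-value filter are given beside those genes above. No paired analysis was possible because each comparison within a line sets 1 list against 1 list; the lines were not joined as 2 pairs. With no counts and no replicate, a site missing from a list cannot be told apart from one that fell short of the caller's threshold.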

Other observations

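Places of the wider pathway that followed the hairpin in the same direction in both lines were few. With shMETTL14 in both lines and NC in neither stood 5 of 123 places (4.07%; 2.25% of all places). They lay on ALPK1 in the coding sequence, at a fold enrichment of 4.9 in U2OS shMETTL14 and 14.4 in 143B shMETTL14, on TNFAIP2 in the 3' UTR (17.4 and 5.98 in the same order), on NKIRAS1 (3.99 and 5.22), on TAB1 (2.64 and 5.17) and on CCND1 (1.53 and 1.69). With NC in both lines and shMETTL14 in neither stood 2 places (1.63%; 1.92% of all). One lay in the 3' UTR of TRADD, the adaptor that docks on the TNF receptor (chr16:67188172-67188457, fold enrichment 7.28 in U2OS NC and 4.66 in 143B NC), and one in the 5' UTR and coding sequence of MAP3K3 (4.59 and 3.7). TRAF6, the ubiquitin ligase that TIFA engages, had 0 sites with shMETTL14 in either line, against 2 in U2OS NC and 1 in 143B NC, and none of its places was listed in both NC lists. TRADD and TRAF6 are named after their values were seen.

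By the number of listed peaks in the 4 lists, the genes nearest to REL (10, 4, 8 and 2 in the order U2OS shMETTL14, U2OS NC, 143B shMETTL14 and 143B NC) were WDR81 (9, 3, 11 and 2), YTHDF2 (9, 6, 8 and 3) and ODF2L (7, 5, 7 and 3). The measure was the Euclidean distance of log2(peaks + 1) over 4 lists, 0.54, 0.65 and 0.69. For TIFA (2, 3, 3 and 3) 11 genes had the same counts, of which HEY1, VPS37B and RAP1A were closest in highest fold enrichment. Nothing on function follows from likeness over 4 values.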
